A study of Mus musculus with 10 samples.

Results

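The genes Gata6, Sox17, Foxa2 and T encode transcription factors that start endoderm and mesoderm formation, and their chromatin was read here in mouse embryonic stem cells. Each locus was the gene's span on the mm9 build of the mouse genome with 20 kb added on each side, and a member was any deposited peak that overlapped it. The 4 loci held 128 of the 543779 peaks in the 10 deposited lists. They were Gata6 at chr18:11052508-11085635, Sox17 at chr1:4481009-4486494, Foxa2 at chr2:147868613-147872705 and T at chr17:8627287-8635361, given as gene spans.

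The lists came from chromatin immunoprecipitation with sequencing (ChIP-seq) of R1E embryonic stem cells of C57BL/6X129Sv mixed background, below 20 passages, grown with serum and leukemia inhibitory factor. Cells received 0.5 uM Adriamycin for 8 h or were left untreated. Adriamycin, also named doxorubicin, is a topoisomerase II poison that leaves breaks in DNA. Antibodies were used against 5 targets, the histone marks H3K27me3, H3K4me3 and H3K79me2, hnRNP L, a protein that binds RNA, and RNA polymerase II (Pol II). There was 1 library per target and condition. No difference between conditions therefore has a replicate check, and no test of the treatment was made. Peak scores are the authors' values and were used to describe, rank and filter peaks within a list. Where scores of both lists stand side by side, no change is read from them. The sources used here give no read depth, so a list with shorter or fewer peaks can also be a less sensitive one. The cell type was not checked against pluripotency genes, since no mm9 annotation was used here.

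In embryonic stem cells, many genes of later development carry H3K4me3 and H3K27me3 at the same promoter, a state called bivalent. H3K27me3 is laid down by Polycomb repressive complex 2 and goes with silencing, while H3K4me3 marks active and poised promoters. H3K79me2, made by the methyltransferase Dot1l, lies over the bodies of transcribed genes. Gata6, a zinc-finger factor, acts in primitive endoderm, and Sox17, an HMG-box factor, in endoderm. Foxa2, a forkhead factor, acts in endoderm and in the node, and T (Brachyury), the founding T-box factor, in the primitive streak and mesoderm.

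The promoters are shown because CpG-rich DNA is where bivalent chromatin forms, and because both marks covered the starts of T and Foxa2 in untreated cells. RefSeq promoter windows, 250 bases before to 50 after a start, are given for 2 of the 4 genes, T and Foxa2, on GRCm38.p6. No position was carried over from mm9. Gata6 was left out of this step, so its missing window is not a failed match. Capitals mark CpG dinucleotides. The T window lies at chr17:8434173-8434472 on the plus strand. Foxa2 had 3 starts on the minus strand. The outermost window lies at chr2:148046920-148047219, and the next, within the gene, at chr2:148045899-148046198.
T: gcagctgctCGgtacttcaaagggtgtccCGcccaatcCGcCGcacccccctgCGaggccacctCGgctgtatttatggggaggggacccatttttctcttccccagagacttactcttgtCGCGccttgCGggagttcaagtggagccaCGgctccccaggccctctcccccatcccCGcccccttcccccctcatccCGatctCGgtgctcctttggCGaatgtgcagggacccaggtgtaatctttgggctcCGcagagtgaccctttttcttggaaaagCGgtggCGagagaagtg
Foxa2 outermost start: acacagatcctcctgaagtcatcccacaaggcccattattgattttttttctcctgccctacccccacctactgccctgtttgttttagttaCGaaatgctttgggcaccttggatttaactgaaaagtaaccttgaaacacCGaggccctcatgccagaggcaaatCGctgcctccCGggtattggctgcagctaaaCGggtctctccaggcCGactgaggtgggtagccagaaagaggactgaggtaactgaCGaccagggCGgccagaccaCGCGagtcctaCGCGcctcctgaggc
Foxa2 inner start: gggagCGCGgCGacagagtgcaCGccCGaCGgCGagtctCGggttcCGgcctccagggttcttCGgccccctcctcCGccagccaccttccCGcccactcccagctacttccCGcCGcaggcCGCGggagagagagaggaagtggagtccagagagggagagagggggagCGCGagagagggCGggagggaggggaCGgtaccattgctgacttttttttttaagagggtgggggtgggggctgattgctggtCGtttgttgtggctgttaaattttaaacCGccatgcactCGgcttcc

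The T window held 17 CpG, and 31.4% of the 32851 windows in the table held at least as many. The outermost Foxa2 window held 12 (39.6% of windows), the inner one 23 (21.5%), and the third, not printed, 13 (37.9%). All 4 were above the median window, which held 7. The p53 binding site's 10-base consensus unit, which reads alike on both strands, was matched in 0 of these 4 windows and in 8.36% of all windows. CpG and p53 matches describe the letters only.

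H3K27me3 and H3K4me3 lay together at each of the 4 genes in both conditions, and H3K79me2 was in neither list at any of them. Of the H3K4me3 peaks, 10 of 10 overlapped H3K27me3 after Adriamycin and 10 of 10 in untreated cells. Among all H3K4me3 peaks, 23.5% did so in the Adriamycin list and 28.1% in the untreated list. H3K79me2 and hnRNP L had 0 peaks in each locus. The nearest H3K79me2 peak to a gene start was 104.25 kb from T in the Adriamycin list and 106.05 kb in the untreated list, and those of Gata6, Sox17 and Foxa2 were farther off. Among all H3K4me3 peaks with H3K27me3, 8.62% overlapped H3K79me2 after Adriamycin and 11.8% in untreated cells, so its lack is the usual state of such peaks. The map of peaks around the 4 gene starts shows the layout.

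**Figure D1:**
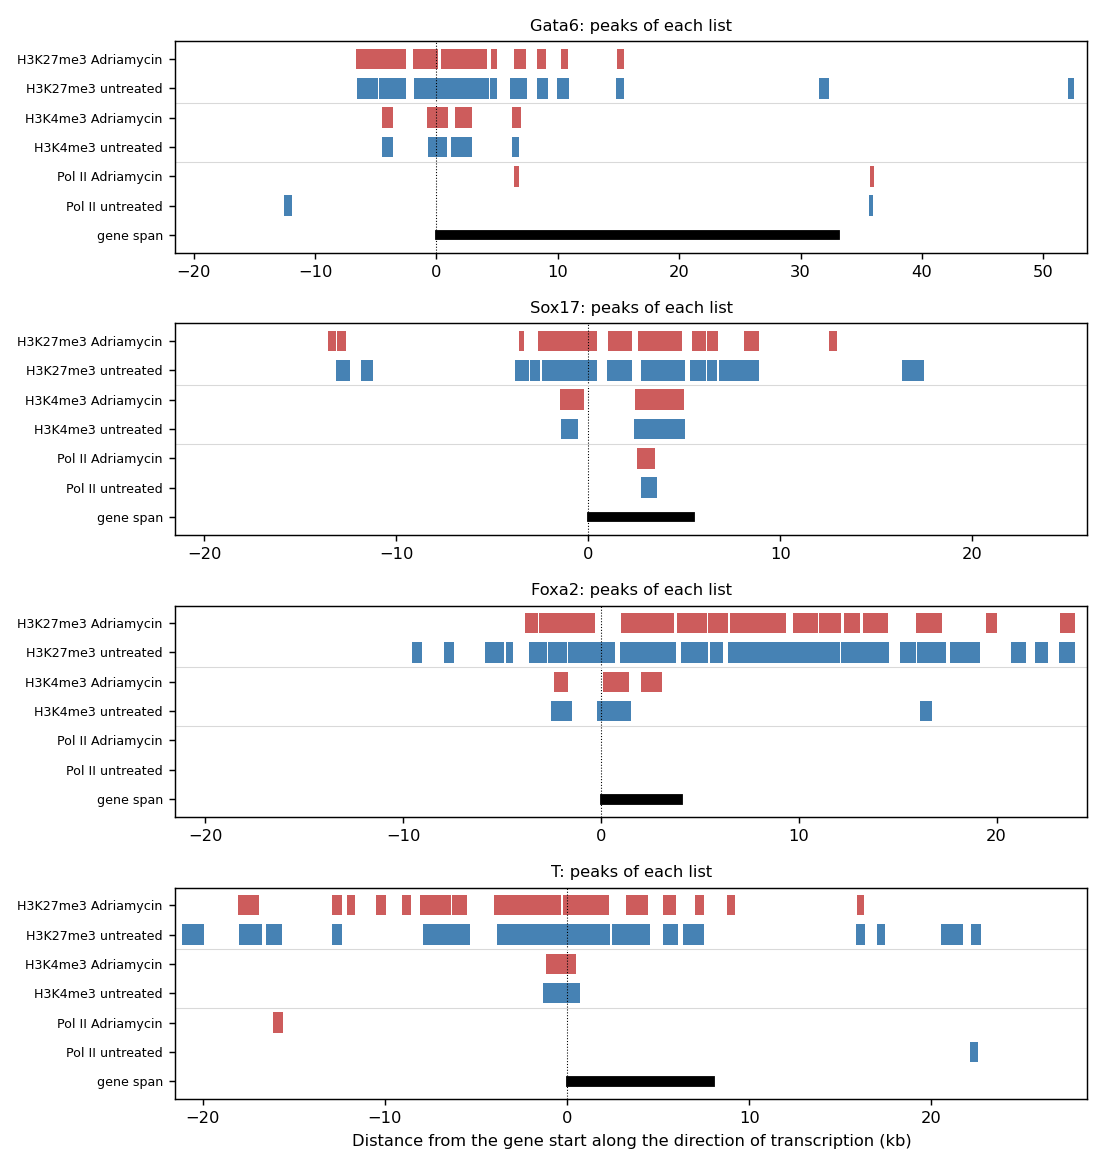
Peaks of H3K27me3, H3K4me3 and Pol II at the 4 genes, with distance from the gene start in kb along the direction of transcription on the x axis, 1 row per list (red Adriamycin, blue untreated) and the gene span in black. H3K4me3 peaks sit inside longer runs of H3K27me3 in both conditions, and Foxa2 has no Pol II peak in either.

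Peaks of H3K27me3 covered less of each locus in the Adriamycin list, by a share close to that seen elsewhere in Polycomb chromatin. The covered length was 13.41 kb after Adriamycin and 16.10 kb in untreated cells at Gata6, a ratio of 0.833. Sox17 had 10.30 kb after Adriamycin and 13.59 kb untreated (0.758). Foxa2 had 18.70 kb and 25.71 kb in the same order (0.728). T had 15.16 kb after Adriamycin and 18.28 kb untreated (0.829). Over the 4 loci the sums were 57.58 kb after Adriamycin and 73.68 kb untreated, a ratio of 0.781, with length-weighted mean scores of 417 and 720. Foxa2 was the most densely covered locus in both lists, at 42.4% of its length after Adriamycin and 58.3% untreated, and Gata6 the least, at 18.3% and 22.0%.

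The lower length was the rule for this mark. Of 2854 windows of 50 kb with at least 10 kb of H3K27me3 in either list, 94.1% had less in the Adriamycin list. Of the 1608 such windows that, like the 4 loci, held H3K4me3 in both conditions and H3K79me2 in neither, the share was 95.1%. In those windows the median ratio was 0.794, and 10% of windows lay below 0.594 and 10% above 0.950. The ratio at Foxa2 was higher than in 32.2% of them, at Sox17 higher than in 39.9%, at T in 61.1% and at Gata6 in 62.3%. All 4 genes thus lay in the middle of the range. The loci span 44.1 to 73.1 kb, so they are not of the same size as the windows.

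**Figure D2:**
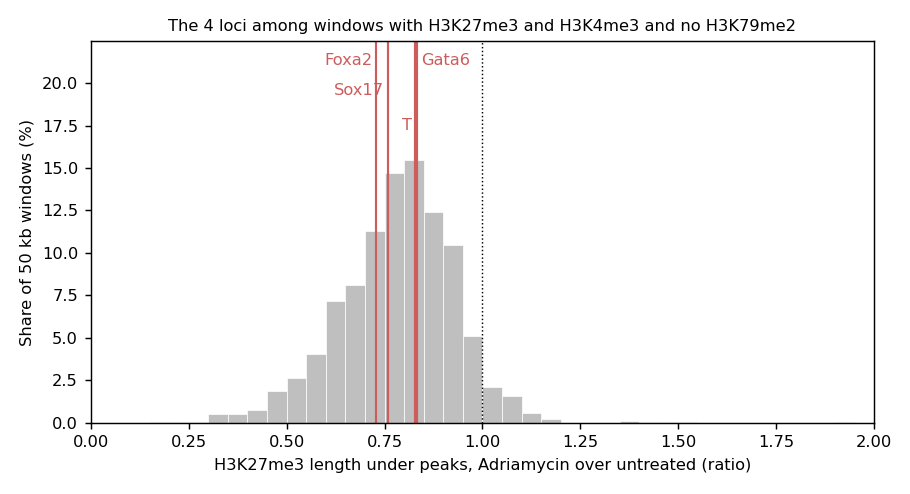
Ratio of H3K27me3 length under peaks, Adriamycin over untreated (x axis), against the share of 50 kb windows with H3K27me3, H3K4me3 and no H3K79me2 (y axis, %). The red lines mark the 4 loci, between 0.728 at Foxa2 and 0.833 at Gata6, on either side of the median window at 0.794.

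The difference was larger in the outer parts of the loci than at the genes. Within the gene spans and 5 kb on each side, H3K27me3 covered 41.20 kb after Adriamycin and 47.84 kb in untreated cells (ratio 0.861). In the outer 5 to 20 kb it covered 16.38 kb and 25.84 kb in the same order (0.634). The inner and outer ratios were 0.922 and 0.549 at Foxa2, 0.808 and 0.530 at Sox17, 0.879 and 0.765 at T, and 0.837 and 0.806 at Gata6. The outer ratio was the lower of the pair at 4 of 4 loci, though at Gata6 the pair was close and the outer part held only 1.65 kb after Adriamycin and 2.05 kb untreated. Around 7125 H3K4me3 peaks with H3K27me3 in both conditions, the outer ratio was the lower in 62.7%, with medians of 0.866 within 5 kb and 0.784 beyond. The measure is not the same as at the loci. Distances there ran from the H3K4me3 peak's midpoint, not from a gene span. Peaks with no untreated H3K27me3 in the outer part were left out.

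**Figure D3:**
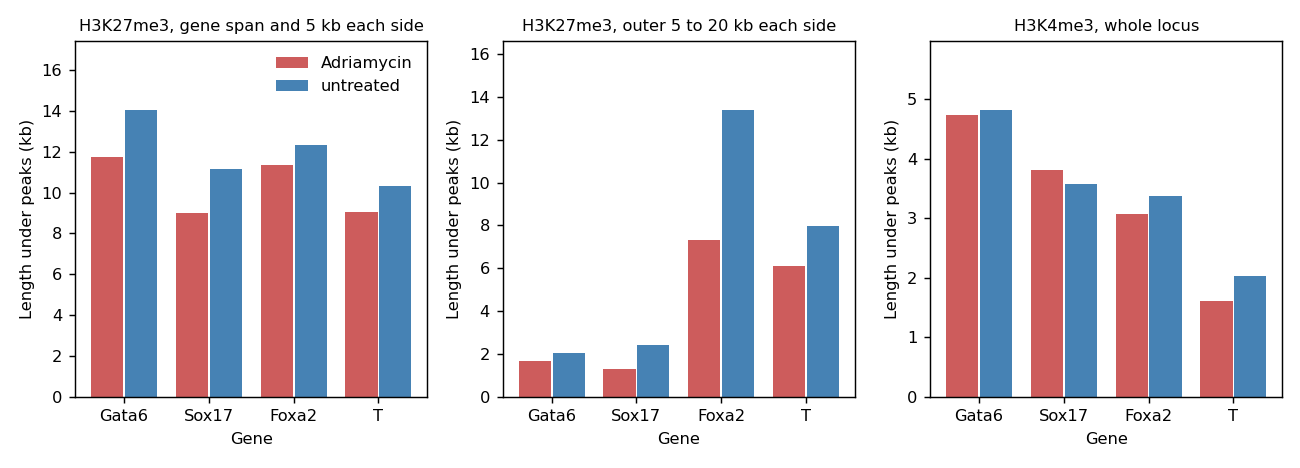
Length under peaks in kb (y axis) for each gene (x axis), Adriamycin in red and untreated in blue, 1 library per bar, for H3K27me3 near the gene, H3K27me3 in the outer 5 to 20 kb and H3K4me3 over the whole locus. The widest gap is in the outer part of Foxa2, at 7.34 kb after Adriamycin against 13.39 kb untreated, while the H3K4me3 bars are nearly level at Gata6.

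Most H3K27me3 peaks had a counterpart in the other list. The loci held 47 H3K27me3 peaks after Adriamycin and 53 in untreated cells. Of the Adriamycin peaks, 6 (12.8%, exact Clopper-Pearson 95% interval 4.83 to 25.7%) had no untreated partner overlapping by at least 1 bp, against 27% of the whole list. Of the untreated peaks, 15 (28.3%, interval 16.8 to 42.3%) had no Adriamycin partner, against 41.2% of the whole list. The intervals cover counting only, and neighbouring peaks of a locus are not independent. Only 3 of the 15 lay within 5 kb of a gene span. All 6 Adriamycin peaks without a partner scored below 100, as did 9 of the 15 untreated ones. Such scores are common, since the median was 90.79 in the whole Adriamycin list and 97.12 in the untreated one. The strongest untreated one scored 250.99, in the top 18.4% of its list, downstream of Foxa2 at chr2:147853526-147855078. In the top 10% of their lists by score were 11 of the 47 Adriamycin peaks and 13 of the 53 untreated peaks, and each had a partner. The share of all top 10% peaks with a partner was not computed, so this is not read as a trait of these loci.

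**Figure D4:**
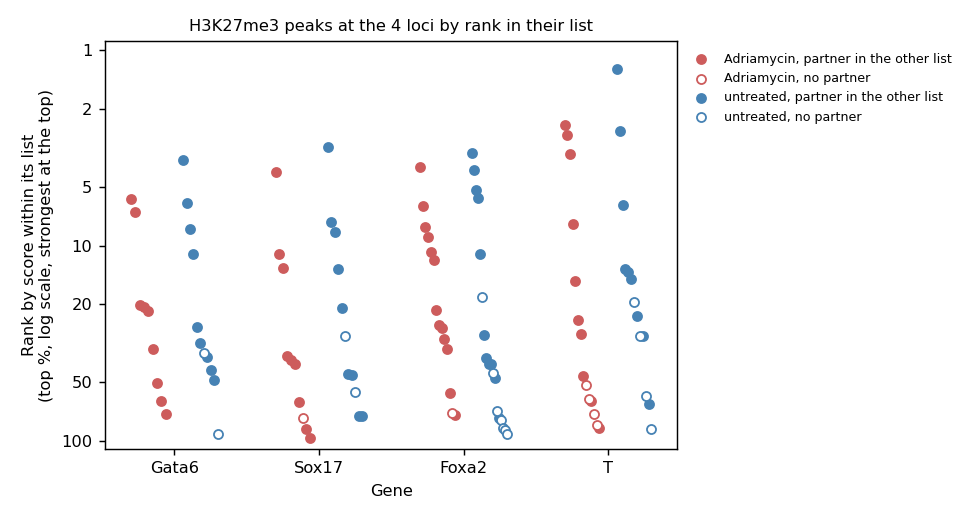
Each point is 1 H3K27me3 peak at a gene (x axis), placed by its rank within its own list (y axis, top % by score, log scale, strongest at the top), red for Adriamycin and blue for untreated, open where the other list has no overlapping peak. No open point is in the top 10% of its list, and T holds the highest-ranked peak, in the top 1.25% of the untreated list. How often top-ranked peaks of the whole lists have a partner was not computed.

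Gata6 carried H3K27me3 from 6.65 kb before its start to 15.41 kb into the gene after Adriamycin, and the rest of the 33128 bp span was free of it. In untreated cells 2 more peaks lay beyond, at 31.52 kb (score 133.9) and 51.99 kb (score 53.49), and neither had a partner after Adriamycin. The start itself lay under 1 untreated peak of 5032 bp, chr18:11051830-11056861, in the top 3.66% of its list. In the Adriamycin list the same stretch held 2 peaks, of 2109 bp over the start and 3788 bp within the gene, with a break of 202 bp between them. That break lay wholly under an H3K4me3 peak. The untreated list had a break of its own just before the start, of 15 bp, also under H3K4me3 and covered by the Adriamycin peak. The run of peaks over the start, joined over gaps of up to 3 kb, was 17.53 kb long after Adriamycin and 17.46 kb untreated, so its ends hardly moved. Peaks filled 73.3% of that run after Adriamycin and 81.0% in untreated cells.

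Gata6 had 4 H3K4me3 peaks in each list and all 8 had a partner. The one over the start, chr18:11051744-11053458 after Adriamycin, was 1715 bp wide with a score of 601.02, and in untreated cells it was 1606 bp wide with a score of 491. The others lay 4.46 kb before the start and in the first part of the gene. The long non-coding gene Gata6os neighbours Gata6 in RefSeq, so the upstream peak cannot be assigned to 1 gene. Pol II had 2 peaks in each list. One, past the gene's end, was shared, with scores of 50.2 after Adriamycin and 77.76 untreated. The other was at 6.42 kb within the gene after Adriamycin (score 50.34) and 11.88 kb before the start in untreated cells (score 145.33). The peak within the gene lay under both an H3K4me3 and an H3K27me3 peak, but its score was near the lowest in the list.

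Sox17 had the strongest H3K4me3 of the 4 genes, and it lay within the gene. That peak, chr1:4481494-4484055 after Adriamycin and chr1:4481447-4484110 in untreated cells, was 2562 bp and 2664 bp wide in that order. Its score was 3136.36 after Adriamycin, at the ceiling of the scale (3100 and above), which 21.8% of that list reached. Its untreated score was 1878.33, below the ceiling, which 24.0% of the untreated list reached. A second, weaker peak lay just before the gene start, 1250 bp wide after Adriamycin and 904 bp untreated.

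Sox17 was also the only one of the 4 genes with a Pol II peak inside the gene in both lists. It measured 935 bp after Adriamycin (score 63.41) and 835 bp untreated (score 51.16), and 736 bp were common. Both peaks lay within the strong H3K4me3 peak, more than 2 kb from the start of the mm9 span. Both scores were low, within the lower part of each list. The Sox17 span is 5486 bp here and 6499 bp in RefSeq of GRCm38.p6, so positions relative to its start hold for the mm9 span only. H3K27me3 covered the start in both conditions, at chr1:4486051-4489112 after Adriamycin (top 4.22% of its list) and chr1:4486066-4488917 in untreated cells (top 3.13%). The peak under the strong H3K4me3 peak ranked lower, in the top 13.0% after Adriamycin and the top 20.9% untreated. Downstream of the gene, an untreated H3K27me3 peak of 2081 bp was matched by an Adriamycin peak of 794 bp, and an isolated untreated peak of 1129 bp (score 162.41) by none.

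Foxa2 lay in the longest run of H3K27me3. Of the starts of the 4 mm9 spans, only that of Foxa2 was not under H3K27me3 after Adriamycin. RefSeq also gives starts within Foxa2, which were not placed on mm9. An Adriamycin H3K27me3 peak lay 1.00 to 3.70 kb inside the gene, so the statement covers the span start only. In untreated cells the start lay under the peak chr2:147871965-147874384, of 2420 bp and in the top 5.69% of its list. After Adriamycin the start fell in a break of 1296 bp, chr2:147871703-147872998, between peaks in the top 3.94% and the top 9.07% of the list. Of that break, 892 bp lay under H3K4me3 after Adriamycin and 1072 bp under H3K27me3 in untreated cells. The untreated list had a break of 224 bp nearby, also under H3K4me3. H3K4me3 there was 1293 bp wide after Adriamycin, ending 0.11 kb inside the gene, and 1713 bp wide in untreated cells, where it reached over the start. Within 1 kb of the start, H3K27me3 covered 707 bp after Adriamycin and 1777 bp untreated, and H3K4me3 890 bp and 1186 bp in the same order.

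The run of H3K27me3 around Foxa2 was 23.86 kb long after Adriamycin and 33.51 kb in untreated cells, where it was in the longest 0.554% of all runs. It was shorter after Adriamycin at both ends with gaps of up to 3 kb joined. The downstream end depended on that gap. The outermost downstream peak, 23.21 to 23.96 kb past the start after Adriamycin, had an untreated partner but fell outside the Adriamycin run. Upstream, 4 untreated peaks between 4.46 and 9.54 kb before the start had no partner, with scores of 53.48 to 106.98. Downstream, 3 untreated peaks between 17.63 and 22.60 kb past the start had none either, with scores of 57.64, 69.52 and 250.99. In the same stretch, 1 Adriamycin peak at 19.45 to 20.02 kb (score 66.39) had no untreated partner. The longest untreated peak, of 5693 bp at 6.42 to 12.11 kb past the start, was matched by 5 Adriamycin peaks. Foxa2 had the weakest H3K4me3 of the 4 genes, with a highest score of 213.89 after Adriamycin and 198.44 untreated. An H3K4me3 peak within the gene was present only in the Adriamycin list (score 86.62) and one 16.13 kb past the start only in the untreated list (score 71.98). Pol II had no peak there in either list, and the nearest to the start was 348.49 kb away after Adriamycin and 625.01 kb untreated. The long non-coding gene 9030622O22Rik lies next to Foxa2 in RefSeq, so the outer peaks cannot be assigned to 1 gene.

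T had the strongest H3K27me3 of the 4 genes and 1 H3K4me3 peak over its start. In untreated cells the start lay under the peak chr17:8623436-8629645, 6210 bp wide, with a score of 2434.86 in the top 1.25% of the list. In the Adriamycin list 2 peaks stood in its place, chr17:8623281-8626955 (3675 bp, top 2.41%) and chr17:8627077-8629612 (2536 bp, top 3.40%). The break between them was 121 bp, just before the start and wholly under H3K4me3. The H3K4me3 peak was 1609 bp wide after Adriamycin and 2029 bp untreated, and the narrower peak lay within the wider one. The second strongest H3K27me3 peak of each list lay upstream, at chr17:8619220-8620898 after Adriamycin (top 2.73%) and chr17:8619371-8621981 untreated (top 2.60%).

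T held 4 of the 6 Adriamycin H3K27me3 peaks without an untreated partner. They were 28.6% of its 14 Adriamycin peaks, close to the 27% of the whole list, so no gain particular to T is read from them. Of these, 3 lay 8.55 to 12.07 kb before the start, with scores of 58.73 to 75.49, and 1 lay past the gene's end (score 87.72). With gaps of up to 3 kb joined, the run over the start was 22.15 kb after Adriamycin and 15.46 kb in untreated cells. With gaps of up to 1 kb it was 9.99 kb after Adriamycin and 11.39 kb untreated, so no direction is given. The untreated list held 4 peaks of its own, 1 at 15.65 to 16.52 kb before the start (score 239.18) and 3 beyond the gene. They were 30.8% of its 13 peaks there, against 41.2% of the whole list. Pol II had 1 weak peak in each list, at 15.61 kb before the start after Adriamycin (score 80.12) and 22.13 kb past it untreated (score 66.18), and these did not overlap. The genes T2 and LOC115486424 lie within the locus or overlap T in RefSeq, so the outer peaks cannot be assigned to T alone.

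Across the 4 genes, the H3K27me3 peaks over the starts of Gata6 and T were each in 2 pieces after Adriamycin, and that of Foxa2 ended short of the start. All 3 breaks lay wholly or mostly under H3K4me3. They were picked at gene starts, where H3K4me3 also lay, so this overlap is partly set by the choice. Other Adriamycin breaks held 0 bp of H3K4me3. Among them were 1313 bp at Sox17, with 1292 bp under untreated H3K27me3, and 921 bp at T, with 816 bp. Sox17 had its start under 1 H3K27me3 peak in both lists. Such splits were common. Of the 4 untreated peaks over a start, 2 were matched by at least 2 Adriamycin peaks, against 51% of all 5341 untreated H3K27me3 peaks of at least 2 kb with H3K4me3. In the other direction, 2 of the 3 Adriamycin peaks over a start, at Gata6 and Sox17, were matched by 2 untreated peaks, against 16.7% of 3518. Nothing is read from counts this small. Breaks under H3K4me3 were also in the untreated list, of 15 bp at Gata6, 224 and 24 bp at Foxa2, and 479 bp within Sox17, of which 363 bp lay under H3K4me3.

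The summed length of H3K4me3 differed less between the lists than that of H3K27me3, though not at T. It covered 13.23 kb after Adriamycin and 13.78 kb in untreated cells over the 4 loci, with 11.55 kb in common. The ratios were 0.984 at Gata6, 1.07 at Sox17, 0.913 at Foxa2 and 0.793 at T. No direction is given for the sum, since it turned with the width of the loci. Peaks without a partner numbered 1 of 10 after Adriamycin (interval 0.253 to 44.5%) and 1 of 10 untreated, both at Foxa2. The shares over the whole lists were 15.8% and 14.5%.

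Every locus except Foxa2 held a Pol II peak in both conditions. Of the 1608 windows of 50 kb with H3K27me3 and H3K4me3 and no H3K79me2, 28.7% held no Pol II peak in either list. The loci held 4 Pol II peaks after Adriamycin and 4 in untreated cells, covering 2.25 kb and 2.34 kb. Of the H3K4me3 peaks, 2 of 10 overlapped Pol II after Adriamycin, at Gata6 and Sox17, and 1 of 10 untreated, at Sox17. Among all H3K4me3 peaks with H3K27me3, 35.5% overlapped Pol II after Adriamycin and 43.2% untreated. In each list 2 of the 4 Pol II peaks had no partner, against 26.1% of all Adriamycin and 48% of all untreated Pol II peaks. With 4 Pol II peaks and 10 H3K4me3 peaks a list, nothing is read from these shares. None of the 8 Pol II peaks covered a gene start.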

How the data were processed

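Peak lists of 10 ChIP-seq libraries were used as the authors deposited them, 1 per target and condition. Per the submitters' processing notes, CASAVA 1.8.2 and MACS 1.4.1 were named, with the mm9 build. The use of an input, the read depth and the handling of duplicates are not given in sources used here. The deposited score is, as MACS of this generation writes it, 10 times the negative log10 of a peak's p-value, with a lowest value near 50. The deposited starts and ends (other columns, in bp) were read as zero-based and are printed 1-based.

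Loci were the mm9 gene spans with 20 kb on each side. A gene start is the start of that span in the direction of transcription. Covered length is the number of bases under peaks, cut at the locus ends. A partner overlaps by at least 1 bp. Runs join peaks over gaps of up to 3 kb. Strands of Foxa2 and T came from the RefSeq promoter table, and those of Gata6 and Sox17 from general knowledge. RefSeq of GRCm38.p6 gave neighbours and promoters. With 1 library per group no test was run. The members and lists were chosen with earlier results of these data known. Planned counts over other lineage regulators and pluripotency genes were not run, because no mm9 annotation was used here. The windows, runs, inner and outer parts and counts of split peaks were added after the data were seen. Every peak at the 4 genes was counted; those over a gene start and the strongest of each list are described. Overlap and length steps were tested on simulated data. Python 3.11.15, numpy 2.4.6, SciPy 1.17.1 and matplotlib 3.10.9 were used. Alternatives for the loci were gene spans extended by 5 or 50 kb on each side in place of 20 kb. The others were a score of at least 100, lists cut to equal length by score, merging over 1 kb, and a 50% overlap.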

Additional observations from a re-analysis of the deposited data

How the results depend on the processing

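The lower H3K27me3 length after Adriamycin kept its direction under all 5 alternatives, with ratios of 0.738 to 0.861 over the 4 loci, and in 20 of 20 recomputations for single loci. The sum for H3K4me3 turned, to 1.004 with spans extended by 5 kb and 1.019 with peaks within 1 kb merged. At single loci it turned at Gata6, to 1.205 with scores of at least 100 and 1.022 when merged, and at Foxa2, to 1.109 with 5 kb and 1.096 when merged. The Pol II ratio was 1.390 with 5 kb, 2.088 with equal numbers of top-scoring peaks, and 0 with scores of at least 100, where 0.69 kb was left untreated. Untreated H3K27me3 peaks without a partner numbered 3 of 31 with 5 kb, 28 of 82 with 50 kb and 6 of 19 when merged. Untreated Pol II peaks without one numbered 0 of 2 with 5 kb, 4 of 7 with 50 kb, 1 of 1 with scores of at least 100 and 1 of 2 with equal lists. Loci of other widths and merged lists hold other numbers of peaks by construction. The cause of the other changes was not tested. No ratio could be given for H3K79me2, which had no peak at any width.

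The length of the run over a gene start depended on the gap joined. At T it was 31.09 kb after Adriamycin against 29.41 kb untreated with gaps of up to 5 kb. At Sox17 it was 10.39 kb against 12.68 kb with gaps of up to 1 kb, and 16.55 kb against 12.68 kb with 5 kb. At Foxa2 it was shorter after Adriamycin at 5 kb too (32.00 kb against 37.95 kb), and at 1 kb no Adriamycin run covered the start. No paired analysis was possible because each target had 1 library per condition. Unknown depth limits any reading of a missing weak peak.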
